A study of Homo sapiens with 12 samples.

Results

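The response to a pulse of an MPS1 inhibitor was examined in NCI-H1944, an established line of human lung adenocarcinoma, in cells labelled as a knockout of IFNAR1, the gene of one chain of the type I interferon receptor. These cells still responded to interferon beta in part, as given below, so receptor function may remain in them, and whether the knockout is complete was not tested. The comparison rests on 4 of the 12 libraries of the series. Of these, 2 came from the cells labelled IFNAR1 knockout (guide IFNAR1sg) given BAY-1217389 at 100 nM for 48 h, and 2 from the same cells given the solvent DMSO. The drug was then washed out and the cells were grown for another 24 h. The other groups used below are cells with a control guide (SCR, wild type at IFNAR1) given the same pulse or DMSO, and both genotypes given interferon beta at 5 ng/ml over the last 24 h, with 2 libraries in each group. The labels do not say whether the knockout is 1 clone or a pool, nor whether the 2 libraries of a group came from separate cultures. The p-values and standard errors (SE) therefore rest on a spread between libraries that may be technical. That spread was estimated over all 12 libraries and shared between features. For gene sums the fit had 6 residual degrees of freedom and borrowed 134 from the other gene sums. The SE of a single feature can thus be smaller than its own libraries would give. In every library, RNA bound by J2, an antibody against double-stranded RNA, was pulled out of a cell lysate and sequenced. No total RNA is used here, so the J2-bound reads of a transcript depend on its amount and on the share of it that is double-stranded, which cannot be told apart. In bulk lysates, fewer cells of a kind and less RNA per cell cannot be told apart either.

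MPS1, the product of TTK, is the kinase that holds cells in mitosis until all chromosomes are attached to the spindle, and cells divide with missegregated chromosomes when it is blocked. Double-stranded RNA in the cytosol is bound by RIG-I and MDA5 (genes RIGI and IFIH1), which signal through MAVS to the transcription factors IRF3 and NF-kB. The interferon beta made in response binds IFNAR1 and IFNAR2 and acts through JAK kinases, STAT transcription factors and IRF9 on genes with an interferon-stimulated response element. IRF3 can act on part of the same genes without the receptor, and type III interferons, which use another receptor, reach the same STAT complex. The series asks which double-stranded transcripts depend on type I interferon after the pulse, and the IFNAR1sg cells are the arm in which the receptor gene was targeted.

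The 4 libraries held between 5076497 and 7415227 reads, within the range of 3739443 to 7430687 for all 12. Reads were counted in stranded genomic regions. A gene sum below is the total over the regions that lie on the strand of a single gene and share no base with an annotated exon, so it reads mostly introns and not the mature mRNA. Regions that share exon bases are called exon regions below. Of the 17307 with reads, 13072 share at most 2 bases, so such a region need not read the mature mRNA. The 2 libraries of SCR cells given interferon beta stood apart, with 295367 and 296843 regions holding reads against at least 566704 in the other 10. Results are given without the interferon libraries where that matters. The 2 pulsed IFNAR1sg libraries held the most such regions, 935974 and 865209, against at most 718978 in the other 10. The deepest library, the first of IFNAR1sg given interferon beta (7430687 reads), had 669588. The part of this wider coverage in the results below was not tested. The guide was checked at the IFNAR1 exon region with reads in all groups, at chr21:33343676-33344099 on the plus strand of hg38. It shares only 1 base with an annotated exon. Where in the gene the guide cuts is not given in the labels, so this region may lie outside the cut. It had 9.41 and 9.51 reads on the CPM scale (reads scaled for library size) in SCR cells given DMSO, 2.73 and 1.7 in IFNAR1sg cells given DMSO, and 2.02 and 1.34 in IFNAR1sg cells after the pulse. The IFNAR1 intron sum was low in all groups and did not pass the test after the pulse (24 and 33 reads with DMSO, 24 and 24 after the pulse, log2 change -0.37 ± 0.39, SE, adjusted p = 0.456). Of 15 lung epithelial markers 6 could be tested, and their list summed to 561 and 815 reads with DMSO and 819 and 927 after the pulse, with SFTPB at 0. KRT19, NKX2-1, SFTPA2 and CLDN7 had no region of their own in the table and so no value. Fibroblast markers (10 genes, COL1A2 and PDGFRA without a region) summed to 15 and 21 reads with DMSO and 119 and 113 after the pulse, most of them from FAP, and SCR cells went from 26 and 12 to 71 and 111. Immune markers (12 genes, of which 6 had no region, among them CD3D, MS4A1, CD14, CD68 and NKG7) summed to 7 and 12 and then 72 and 40. CD4, CD8A and ITGAM were the 3 immune markers that could be tested, and all 3 rose from few reads, but only 1 was called without the second DMSO or the first pulsed library. The part of these lists in the results was not tested.

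The pulse changed the J2-bound RNA of IFNAR1sg cells broadly. Of 14348 gene sums tested, 3883 (27.1%) rose and 2828 (19.7%) fell, at an adjusted p under 0.05 in edgeR's quasi-likelihood test, and the median log2 change over all of them was 0.16. Without TMM scaling factors the split turned to 3287 higher and 3507 lower. Of 89111 regions, 8387 (9.41%) rose and 6993 (7.85%) fell. The count of 15380 changed regions (17.3%) dropped to 9340 and 7068 without the first or the second DMSO library and to 7738 without the second pulsed library. The direction differed by the type of region. Among 15213 regions that lie opposite a gene, 3519 rose and 101 fell (median log2 change 0.56). Among 12494 regions between genes, 1758 rose and 353 fell (median 0.29). Among 51774 intronic regions, 2119 rose and 6120 fell (median -0.36). The share of all reads that lay in introns was 38.2% and 38.6% with DMSO and 32.8% and 31.0% after the pulse, while reads opposite genes went from 15.4% and 15.3% to 18.3% and 22.1%. Without these factors all changes shift by about -0.13 on the log2 scale, and the regions then split into 6263 higher and 8916 lower. Regions that share exon bases split into 991 higher and 419 lower with TMM and into 659 and 675 without it, so their direction as a class depends on the scaling, and the direction of the other classes does not.

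Interferon-stimulated genes rose after the pulse in IFNAR1sg cells, in which receptor function may remain. Of the 73 genes on the list, 66 could be tested and 57 of these rose, against 27.1% of all gene sums, and 0 fell in edgeR. At an unadjusted p under 0.05 the counts were 58 and 0, and with the DESeq2 Wald test 51 and 0. Their median log2 change was 1.60, against 0.16 for all gene sums. IFIT1, which binds foreign RNA ends and blocks their translation, had 26 and 38 reads with DMSO and 296 and 243 after the pulse (log2 change 2.95 ± 0.19, adjusted p = 1.20e-28). OAS2, an enzyme that makes the messenger that switches on RNase L, had 4 and 2 reads with DMSO and 66 and 55 after the pulse (4.14 ± 0.45). In both genes the lower of the pulsed libraries lay far above the higher control. ISG15, a ubiquitin-like modifier, had 32 and 54 reads with DMSO and 98 and 86 after the pulse, a smaller change (0.98 ± 0.25, adjusted p = 0.000551). STAT2, a transcription factor that carries the interferon signal, had 6 and 4 reads and then 48 and 31 (2.82 ± 0.50). IRF7, which amplifies interferon production, had 1 and 5 reads and then 16 and 16 (2.25 ± 0.66, adjusted p = 0.00291), and without the first DMSO library its adjusted p was 0.054. USP18, which restrains the receptor, had 19 and 36 reads and then 130 and 111 (2.01 ± 0.23). RMI2, a subunit of the BLM helicase complex that is not on the list, was among the 10 gene sums with the smallest p that rose (168 and 271 reads, then 969 and 1177, 2.17 ± 0.11). Reads on the other strand of RMI2 also went from 21 and 28 to 153 and 211.

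**Figure D1:**
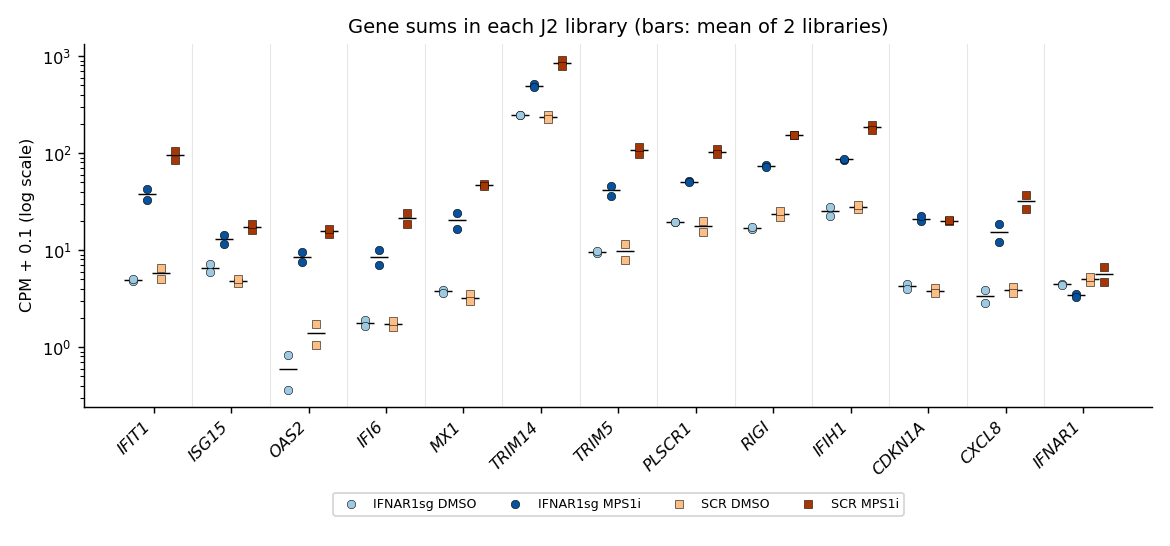
J2-bound reads of 13 genes as intron sums in CPM plus 0.1 (log axis) in each library of both genotypes with DMSO or after the MPS1i pulse. Points are single libraries and bars the mean of 2. In IFNAR1sg cells both pulsed libraries lie above both controls for every gene shown except IFNAR1 itself.

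The other ISG members spread widely around that median. The largest fitted changes, in genes chosen after their values were seen, were those of MX2 (0 and 3 reads with DMSO, 45 and 58 after the pulse, log2 change 4.86 ± 0.51) and XAF1 (1 and 2 reads, then 44 and 50, 4.72 ± 0.54), both from counts near 0. MX1, which encodes an antiviral GTPase, had 21 and 27 reads and then 165 and 123 (2.46 ± 0.23). The 9 tested members that did not pass the test were NMI (-0.14 ± 0.30), RNF213 (-0.06 ± 0.10), ZNFX1 (0.19 ± 0.16), IFITM2, IFI35, TNFSF10, CCL5, GBP3 and GBP1. The last 6 of these had at most 25 reads in any of the 4 libraries. CCL5, a chemokine, had 6 and 1 reads with DMSO and 14 and 6 after the pulse (1.32 ± 0.79, adjusted p = 0.167), and it was called higher without the first DMSO library (3.21, adjusted p = 0.0333) and with exon regions in its sum (2.49, adjusted p = 8.48e-05). Leaving out 1 of the 4 libraries at a time left between 49 and 53 members called, and leaving out the interferon beta libraries left 54 of 64.

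Promoter sequences are shown because the response element known to drive these genes can be read in them. The core GAAA, then NN, then GAAA (N is any base) was searched on both strands in the 250 bases before and 50 after each gene start, with promoters from RefSeq (GRCh38.p14). It occurred in 3.57% of 35116 promoters, or for 4.38% of 27305 genes, and for 36 of the 56 interferon-stimulated genes with an entry. On other lists it occurred for 9 of 13 genes of antigen presentation, 4 of 20 of double-stranded RNA sensing, 4 of 19 of interferon production, 2 of 13 of DNA sensing, 5 of 51 histone genes, 2 of 22 NRF2 targets (ABCC2 and TXNRD1) and 1 of 24 p53 targets. It was found for 0 of the genes on the NF-kB, mitosis, DNA replication, stress response and secreted factor lists, and also in promoters of the long genes GPC6 and TENM2. Windows with the core in capitals, written on the strand on which it reads that way, were as follows for genes whose sums rose in IFNAR1sg cells.
IFIT1 (chr10:89392499-89392524, minus strand): cgaaagggGAAAGTGAAActaaagct
ISG15 (chr1:1013382-1013407, plus strand): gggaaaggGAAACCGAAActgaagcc
IFIH1 (chr2:162318688-162318713, minus strand): agagaatcGAAACAGAAAccaaagtc
TRIM14 (chr9:98119231-98119256, plus strand): tcccaaggGAAACCGAAAcctcggcc
TRIM5 (chr11:5685084-5685109, plus strand): cagggcagGAAAGTGAAAgataaact
PLSCR1 (chr3:146544669-146544694, minus strand): ggaaccggGAAAAGGAAAccgtgttg
EIF2AK2 (chr2:37156969-37156994, minus strand): tccaagggGAAAACGAAActgagaac
OAS3 (chr12:112938454-112938479, plus strand): ccgggcggGAAAACGAAAccagaaat
A match shows only that these letters are present in the window.

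The rise of the interferon-stimulated genes was smaller in IFNAR1sg than in SCR cells. In SCR cells all 66 tested members rose with the same pulse (22.2% of all gene sums rose there), with a median log2 change of 2.92. The change in SCR was the larger one for 61 of 66. The difference itself, tested as an interaction, passed for 26 of 66 on the side of SCR and for 0 on the side of IFNAR1sg (0.335% and 1.09% of all gene sums). At an unadjusted p under 0.05 these counts were 47 and 0, and with the DESeq2 Wald test 23 and 0. Before the pulse, 0 of 66 differed between the genotypes in edgeR at the same threshold (0.0767% of all gene sums did), and 4 were higher and 6 lower in IFNAR1sg at an unadjusted p under 0.05. RMI2 rose by 1.22 ± 0.16 less on the log2 scale in IFNAR1sg than in SCR. TRIM14, an adaptor of the MAVS pathway, rose by 0.98 ± 0.08 in IFNAR1sg and 1.85 ± 0.09 in SCR, with a difference of 0.87 ± 0.12 (adjusted p = 1.90e-08). TRIM5, a factor that restricts retroviral capsids, rose by 2.12 ± 0.16 and 3.50 ± 0.15, and lies over TRIM22 on the other strand. PLSCR1, a membrane protein with antiviral activity, rose by 1.38 ± 0.15 and 2.54 ± 0.14. For IFIT1 the difference was 1.10 ± 0.30 (adjusted p = 0.0263), and it ended under 8 of the alternatives, among them the DESeq2 Wald test (adjusted p = 0.0888). For ISG15 and OAS2 it did not pass the test (0.89 ± 0.37 with adjusted p = 0.307, and -0.60 ± 0.68 with adjusted p = 0.838). The count of 26 fell to 14 without the second DMSO library of IFNAR1sg and lay between 21 and 27 without any other single library.

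**Figure D2:**
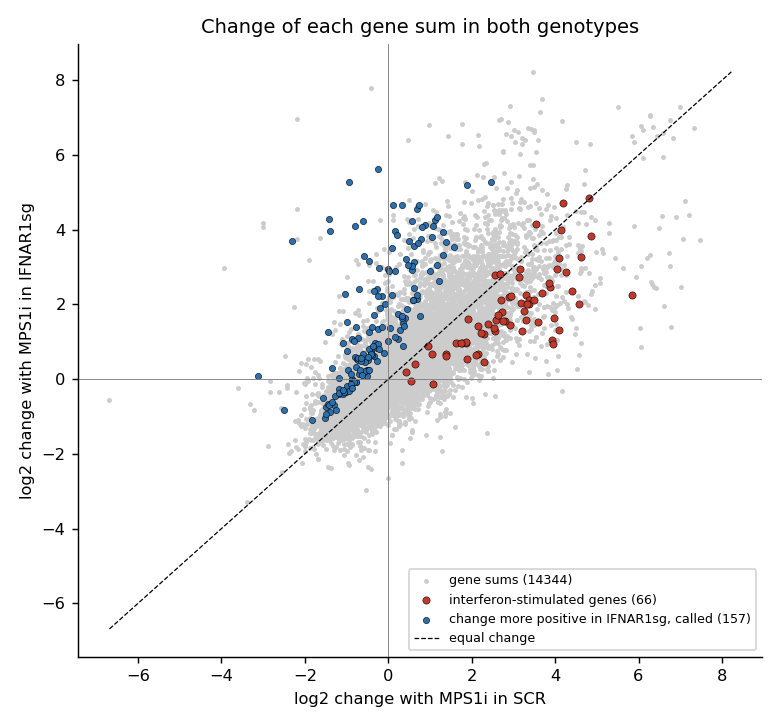
Each point is 1 gene sum, placed by its log2 change with MPS1i in SCR cells (x axis) and in IFNAR1sg cells (y axis). The 66 interferon-stimulated genes lie mostly below the line of equal change, and the 157 genes whose change was more positive in IFNAR1sg by the interaction test lie above it.

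Interferon beta itself still raised interferon-stimulated genes in the IFNAR1sg cells, and by less than in SCR cells. Receptor function may therefore remain in IFNAR1sg cells, and how much of the response to the pulse goes through it was not tested. With interferon beta 42 of 66 rose in IFNAR1sg (0.648% of all gene sums did), with a median log2 change of 1.13, against 66 of 66 (8.01% of all gene sums) and a median of 3.05 in SCR. The rise was larger in SCR by the interaction test for 52 (4.31% of all gene sums). The pulse and interferon beta were compared with the same DMSO libraries in these cells, so the values are only set side by side. IFIT1 rose by 2.95 with the pulse and by 2.34 with interferon beta, RMI2 by 2.17 and 2.12, and OAS2 by 4.14 and 4.24. Values further apart were those of OASL (2.23 and 0.73) and RIGI (2.11 and 1.38). For most interferon genes there was no value. IFNB1, IFNL2, IFNL3 and IFNAR2 had no region of their own in the table, so nothing can be said of their reads. IFNL1, a type III interferon, had 3 and 0 reads after the pulse and 0 in the IFNAR1sg libraries with DMSO or interferon beta. CXCL10, a chemokine gene that responds to interferon, had 0 reads in all 6 IFNAR1sg libraries. IFNLR1, the type III receptor chain, had 38 and 29 reads with DMSO and 23 and 44 after the pulse (log2 change -0.17 ± 0.35, adjusted p = 0.724).

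Of 25 tested genes for the sensing of double-stranded RNA, 10 rose and 5 fell (median log2 change 0.26), against 27.1% and 19.7% of all gene sums, so the share that fell was near that of all genes. All 10 that rose are also on the interferon-stimulated list. RIGI had 91 and 133 reads with DMSO and 522 and 530 after the pulse (2.11 ± 0.14), and IFIH1 had 153 and 172 and then 586 and 651 (1.79 ± 0.13). For both sensors the pulsed libraries lay well apart from the controls and close to each other. The difference from SCR passed the test for IFIH1 (0.94 ± 0.18, adjusted p = 0.000294) and not for RIGI (0.60 ± 0.20, adjusted p = 0.129). OASL, which binds RIG-I, rose by 2.23 ± 0.17, OAS1 by 1.83 ± 0.19 and OAS3 by 1.72 ± 0.17. EIF2AK2, the kinase PKR that stops translation on double-stranded RNA, rose by 0.63 ± 0.11, against 1.39 ± 0.11 in SCR. The 5 that fell included MAVS (-0.98 ± 0.23), the helicase DHX9 (-1.02 ± 0.14), the stress granule protein G3BP1 (-0.54 ± 0.18) and DROSHA, which cuts miRNA precursors (-0.44 ± 0.13). These falls were in intron reads.

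On the list of interferon production and receptors, 5 of 15 tested genes rose (among them JAK2, STAT2, IRF7 and USP18) and TBK1, a kinase that activates IRF3, fell (-0.93), against 27.1% and 19.7% of all gene sums. JAK2 had 64 and 119 reads with DMSO and 226 and 225 after the pulse (1.19 ± 0.19), and rose by 1.25 ± 0.20 in SCR. Among 12 genes of DNA sensing 3 rose and 4 fell, and 3 of 12 is near the 27.1% of all gene sums. IFI16, a nuclear DNA sensor, had 49 and 50 reads and then 158 and 164 (1.56 ± 0.21), and ENPP1, which degrades the messenger of cGAS, had 10 and 13 and then 74 and 67 (2.48 ± 0.37). SAMHD1, which breaks down nucleotides, rose by 0.66 ± 0.25, a call that ended with the DESeq2 Wald test (adjusted p = 0.0744), without TMM factors (adjusted p = 0.0669), without the first DMSO library (0.40, adjusted p = 0.277) and without the second pulsed library (adjusted p = 0.161). The nuclear lamina genes LMNB1 (-1.13 ± 0.14), LMNB2 (-1.27 ± 0.26) and TMPO (-0.91 ± 0.12) and the DNA sensor CGAS (-0.59 ± 0.13) fell. Of 9 tested genes of antigen presentation 4 rose and 0 fell in edgeR (4 and 0 at an unadjusted p under 0.05, 3 and 0 with the DESeq2 Wald test). Their median log2 change was 0.46. With exon regions in the sums 9 of 12 rose and 0 fell (median 1.06), where 4228 of all 15469 gene sums rose. PSMB9, an immunoproteasome subunit, had 15 and 19 reads and then 83 and 101 (2.30 ± 0.27), close to its change in SCR (2.43 ± 0.21). HLA-B had 2 and 1 reads and then 20 and 30. HLA-E rose by 1.34 ± 0.50 and NLRC5, the activator of class I genes, by 0.49 ± 0.16, but each lost its call under several alternatives, among them the absence of the second DMSO library (adjusted p = 0.206 and 0.0858), which left 2 of the 4 rises. Reads of HLA genes can be split between near-identical copies, so those values are uncertain.

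Genes driven by NF-kB rose with the pulse, 9 of 11 tested, and 0 fell in edgeR (median log2 change 1.39), against 27.1% of all gene sums that rose. Without the first DMSO library 6 of 12 rose. At an unadjusted p under 0.05 the counts were 10 and 0, and with the DESeq2 Wald test 7 and 0. CXCL8, which attracts neutrophils, had 15 and 29 reads with DMSO and 128 and 89 after the pulse (2.19 ± 0.29). TNFAIP3, the brake on NF-kB known as A20, had 4 and 2 and then 44 and 38 (3.58 ± 0.56). TNFAIP2 rose by 1.95 ± 0.30, BIRC3 by 1.39 ± 0.21 and CXCL5 by 0.98 ± 0.14. The interaction passed the test for 0 of 11 in edgeR or with the DESeq2 Wald test, and for 3 at an unadjusted p under 0.05. With interferon beta 0 of 11 rose in these cells in edgeR, also at an unadjusted p under 0.05. A palindromic NF-kB site, GGGAA followed at once by TTTCC, was searched in the same windows. It occurred for 0.179% of all genes and for 6 of 19 with an entry on this list. Among the tested genes of the list it occurred for 2 of the 10 with an entry. The window of CXCL5, a neutrophil chemokine with the site, is shown.
CXCL5 (chr4:73998751-73998776, minus strand): tgagttcaGGGAATTTCCccagcatc
Secreted factors of senescent cells overlapped that group and rose for 10 of 15, with 1 fall, IGFBP3 (-0.90), whose call ended without the second DMSO library. PLAT, the tissue plasminogen activator, had 5 and 0 and then 53 and 58 (4.25 ± 0.56), and IGFBP7 rose by 1.41 ± 0.20.

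Of 25 tested p53 targets 7 rose and 3 fell, near the 27.1% and below the 19.7% of all gene sums (median 0.16, as for all gene sums). CDKN1A, the inhibitor p21 that stops the cell cycle, had 24 and 30 reads with DMSO and 136 and 167 after the pulse (log2 change 2.35 ± 0.26), and its difference from SCR was 0.07 ± 0.39 (adjusted p = 0.979). BTG2 rose by 1.94 ± 0.40 and RRM2B by 1.44 ± 0.24. The 3 that fell were SESN2 (-0.64), CMBL (-0.60 ± 0.10) and PPM1D (-0.77). The intron sum of MDM2, which targets p53 for degradation, did not pass the test (1371 and 1845 reads, then 1781 and 1816, 0.03 ± 0.09, adjusted p = 0.805), while a sum that includes its exon regions rose by 0.78. ATF3, a stress factor on the list of unfolded protein and integrated stress responses, had 60 and 68 reads and then 304 and 333 (2.18 ± 0.19). Of the 11 tested genes of that list 2 rose and 6 fell (median -0.64), against 27.1% and 19.7% of all gene sums. A single rise was left without TMM factors, with the DESeq2 tools, with no filter, and without the second DMSO or the second pulsed library. The sign of the median depended on the sums: it was 0.10 with exon regions (4 of 15 higher, 6 lower) and 0.05 with no filter. TRIB3 fell by 1.56 ± 0.20 and the amino acid transporter gene SLC3A2 by 1.15 ± 0.15. SLC7A11, which imports cystine, fell by 0.95 ± 0.10, and PSAT1, an enzyme of serine synthesis, by 0.87 ± 0.19.

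Genes of mitosis and DNA replication fell. Of 41 tested mitosis genes 22 fell and 3 rose (median log2 change -0.46), and of 28 replication genes 14 fell and 3 rose (median -0.44). For these and for the histone genes below, the shares over all gene sums were 19.7% falling and 27.1% rising. The counts of rises and falls in both lists changed when a library was left out. Without the first DMSO library the medians were -0.45 for mitosis and -0.463 for replication genes. Without the second DMSO library they were -0.377 and -0.436. CCNB1, the cyclin of entry into mitosis, had 388 and 525 reads with DMSO and 124 and 167 after the pulse (-1.78 ± 0.15). ASPM fell by 1.35 ± 0.13, TPX2 by 1.25 ± 0.14 and KIF11 by 1.22 ± 0.16, all 3 of which work on the spindle. TTK, the target of the drug, had 44 and 83 reads and then 36 and 29 (-1.07 ± 0.32, adjusted p = 0.00334), and without the second DMSO library its adjusted p was 0.0967. The 3 that rose were CCNA2 (1.39 ± 0.39), E2F7 (0.94 ± 0.24) and CENPE (0.55 ± 0.22), and CENPE turned to -0.060 when exon regions were added and lost its call without the second DMSO (adjusted p = 0.285) or the first pulsed library (0.30, adjusted p = 0.375). In DNA replication the helicase subunit MCM5 had 179 and 258 reads and then 72 and 85 (-1.60 ± 0.20). POLE, the leading-strand polymerase, fell by 1.51 ± 0.15, UHRF1 by 1.27 ± 0.17 and the maintenance methylase DNMT1 by 1.04 ± 0.21. The 3 that rose were TYMS (1.03 ± 0.28), POLD3 (0.53) and PRIM2 (0.46 ± 0.14, but 0.17 with adjusted p = 0.41 without the first pulsed library). The interaction passed for 0 of 41 mitosis genes in edgeR or the DESeq2 Wald test (2 at an unadjusted p under 0.05), and PRIM2 (-1.0 ± 0.20) and POLA1 (-0.81 ± 0.21), both of the polymerase alpha-primase complex, had the more positive change in IFNAR1sg. Both calls ended without the first pulsed library (adjusted p = 0.099 and 0.377). That of POLA1 also ended with the DESeq2 Wald test (adjusted p = 0.154), without the second DMSO library (adjusted p = 0.141) and without the first DMSO or the first pulsed library of SCR (adjusted p = 0.192 and 0.2). Around histone genes 7 of 9 tested sums rose and 0 fell in edgeR (9 and 0 at an unadjusted p under 0.05, 7 and 0 with the DESeq2 Wald test, and 7 and 1 without the second pulsed library, median 1.07), for example H2BC6 with 26 and 47 reads and then 152 and 154 (1.95 ± 0.24). Gene sums leave out exon bases by construction, so these reads lie outside the annotated exons.

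NRF2 targets, which make antioxidant and detoxifying proteins, fell as a group of introns. Of 28 tested, 22 fell and 2 rose (median -0.54), against 19.7% and 27.1% of all gene sums. ABCC1, an export pump, had 5323 and 8099 reads with DMSO and 2375 and 2617 after the pulse (-1.54 ± 0.08, adjusted p = 1.34e-35), with a difference from SCR of -0.01 ± 0.12 that did not pass the test. TXNRD1, thioredoxin reductase, had 10626 and 14550 reads and then 6124 and 6624 (-1.11 ± 0.08). ABCC2 fell by 1.11 ± 0.10. The 2 that rose were CBR3 (1.47 ± 0.33) and AKR1B1 (1.24 ± 0.16). Other introns with the smallest p among falls lay in ASS1 of the urea cycle (-1.45 ± 0.09), RIMKLB (-1.30 ± 0.09), ACACA of fatty acid synthesis (-1.31 ± 0.09), XRCC2 (-1.68 ± 0.13), TNRC18 (-1.32 ± 0.11), CRB1 (-1.58 ± 0.13), RBL1 (-1.75 ± 0.14) and PRKDC (-1.30 ± 0.10). Among rises, SDCBP, which encodes the adaptor syntenin, had 147 and 131 reads and then 1015 and 963 (2.68 ± 0.14), and 2.62 ± 0.15 in SCR.

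**Figure D3:**
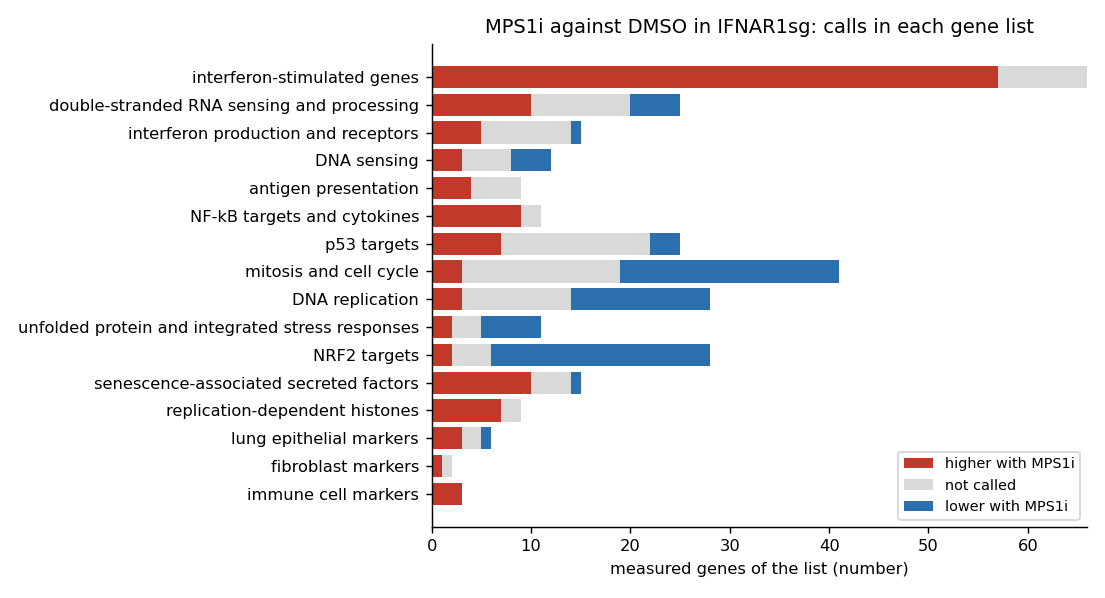
Number of tested genes of each list that rose (red), fell (blue) or were not called (grey) with MPS1i in IFNAR1sg cells, by edgeR's test at an adjusted p under 0.05. The interferon-stimulated list has 57 of 66 higher and none lower, while mitosis, DNA replication and NRF2 target lists have more genes lower than higher.

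Single regions show where in the genome the rise lay, with coordinates of hg38 as deposited (whether starts count from 0 or 1 is not stated). The region with the smallest p lay opposite RGS12 at chr4:3342934-3439912 on the minus strand, with 4.91 and 4.43 CPM with DMSO and 101 and 100 after the pulse (log2 change 4.43 ± 0.23, and 3.96 in SCR). A region 3216 bases past the end of MDM2 and opposite the carboxypeptidase gene CPM, at chr12:68853902-68886318, went from 25.3 and 16.8 CPM to 205 and 189 (3.24 ± 0.18). A region 439 bases past MX1, at chr21:41459653-41462274, went from 9.83 and 13 to 126 and 120 (3.41 ± 0.18), and one 215 bases past IFI44L from 4.19 and 2.48 to 43.1 and 40.8 (3.69 ± 0.24). In each of these 4 regions both pulsed libraries lay close together and far from the controls. A region 714 bases past RIGI and opposite ACO1, at chr9:32384578-32454991, rose by 2.42 ± 0.15 and by 1.22 ± 0.20 less than in SCR (adjusted p = 0.00061). A region that shares 1 base with an exon of OAS2, at chr12:112998410-112999191, went from 12.2 and 11.9 CPM to 105 and 84.2 (2.97 ± 0.17). This rise was 1.33 ± 0.23 less than in SCR (adjusted p = 0.0013), while the difference of the OAS2 intron sum did not pass the test. A long region opposite OAS1 to OAS2, at chr12:112908678-113014032, rose by 2.60 ± 0.14, and a region that shares 1 base with an exon of IFI6 rose by 3.12 ± 0.17. The falls with the smallest p were introns, among them ABCC1 (chr16:16060834-16066185, from 125 and 117 CPM to 27.5 and 30.7, -2.05 ± 0.17), ASS1 (-2.12 ± 0.18), SERINC5 (-2.53 ± 0.24), CCNB1 (-2.08 ± 0.20), RBM39 (-1.97 ± 0.21), PTGR1 (-1.64 ± 0.17) and CPS1 (-1.67 ± 0.18). Of the 55 regions that differed between the genotypes (0.0617%), 36 shared exon bases and had the larger rise in SCR. The mitochondrial plus strand from base 888 to 2589, which holds parts of the ribosomal RNA genes, rose by 0.67 ± 0.10. Its pulsed libraries lay far apart (4895 and 5813 CPM, then 10320 and 6772). The plus strand from 2746 to 16569 rose by 0.38 ± 0.10 (adjusted p = 0.00402), but not with the DESeq2 Wald test (adjusted p = 0.162), and by 0.13 without the first pulsed library. Both calls ended with no filter. The minus strand of the whole mitochondrial genome did not pass the test (-0.13 ± 0.11), but was called lower without TMM factors (-0.26, adjusted p = 0.0423).

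Among repeat elements more subfamilies rose than fell after the pulse in these cells, and Alu, the family with the most reads, was not called. Reads were summed over regions that carry exactly 1 repeat name. Of 1794 subfamilies, 376 (21%) rose and 77 (4.29%) fell (median log2 change 0.21), and without TMM factors 280 rose and 144 fell. Without the second DMSO library 273 were called in place of 453 (25.3%). Of 55 families, 19 (34.5%) rose and 1 (1.82%) fell, or 18 and 6 without TMM factors. Which repeats were called depended on the regions summed. Over regions between genes alone 557 of 1005 subfamilies rose and 9 fell, and 44 of 47 families rose and 0 fell. L2 and MIR subfamilies, of which 0 were called in the main sums, then rose for 4 of 5 and 5 of 5. Endogenous retroviruses were among those that rose in the main sums. LTR12C, the terminal repeat of HERV9, went from 170 and 176 CPM to 394 and 371 (1.15 ± 0.09), LTR12D from 8.19 and 7.82 to 29.8 and 33.7 (1.99 ± 0.20), and the inner part HERV9-int from 2.37 and 2.61 to 22.5 and 17.2 (2.98 ± 0.29). THE1B-int and HERVL-int rose by 0.97 ± 0.10 and 0.93 ± 0.10, and the simple repeat (TGCATTT)n by 3.11 ± 0.24. By list, 5 of 7 LTR12, 8 of 9 THE1, 33 of 52 MLT1 and 8 of 12 MLT2 subfamilies rose and 0 fell in edgeR or the DESeq2 Wald test (1 MLT1 at an unadjusted p under 0.05). Without TMM factors 27 MLT1 subfamilies rose and 1 fell. Of 24 HERVK and LTR5 subfamilies 8 rose, and of 6 SVA subfamilies 3 rose. All 9 young L1 subfamilies rose, with L1HS at 0.56 ± 0.09 and L1PA2 at 0.52 ± 0.08, and of 96 older L1 subfamilies 41 rose and 1 fell, or 26 and 3 without TMM factors. For Alu elements the log2 change of the family sum was -0.14 ± 0.07 (adjusted p = 0.11). Of Alu subfamilies 2 of 4 AluJ, 1 of 17 AluS and 1 of 25 AluY fell, while 0 rose in edgeR, in the DESeq2 Wald test or at an unadjusted p under 0.05. Their direction depended on the regions used: without TMM factors 11 AluS subfamilies fell, while over regions between genes alone 4 of 4 AluJ, 14 of 17 AluS and 4 of 16 AluY rose (medians 0.58, 0.53 and 0.54) and 0 fell.

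Among families, ERV1 rose by 0.56 ± 0.06 (3119 and 3074 CPM, then 4742 and 4357), ERVL-MaLR by 0.51 ± 0.06 and L1 by 0.30 ± 0.07. The acro family of short-arm satellites rose most, by 3.17 ± 0.34, from 2.55 and 1.17 CPM to 22.4 and 9.80, against 1.32 in SCR (difference adjusted p = 0.052). The single fall was that of snRNA (-0.25 ± 0.10, adjusted p = 0.025), which turned to 0.78 over regions between genes alone and lost its call without the second DMSO (adjusted p = 0.287) or the second pulsed library (adjusted p = 0.188). The subfamily falls were led by Charlie1b (-1.11 ± 0.10) and (TTCT)n (-1.32 ± 0.13). The TXNRD1 and RIMKLB introns named above carry these repeats, and over regions between genes alone both turned positive (0.86 and 0.92). Differences between the genotypes were few, with (GGC)n rising more in SCR (1.13, adjusted p = 0.011) as the 1 subfamily called (0.0557%) and hAT-Tip100? rising more in IFNAR1sg as the 1 family (1.82%, difference -0.64, adjusted p = 0.021). The (GGC)n call ended with the DESeq2 Wald test, without TMM factors and with a term for the replicate number, each of which called 0 subfamilies. At an unadjusted p under 0.05 there were 111 subfamilies and 9 families.

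**Figure D4:**
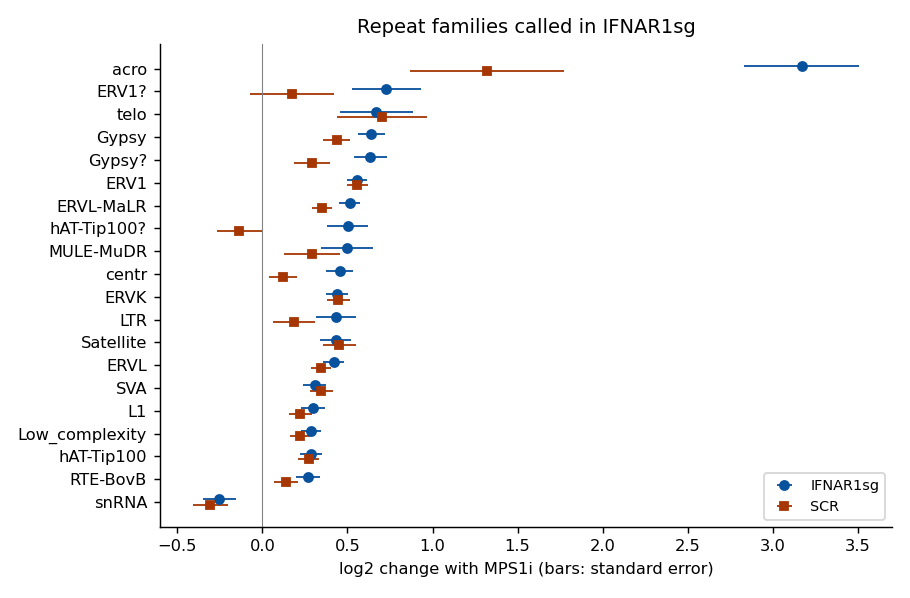
Log2 change with MPS1i of the 20 repeat families called in IFNAR1sg cells (blue circles), with the same families in SCR cells (red squares) and bars of 1 standard error. The acro family lies at 3.17 in IFNAR1sg, 18 others lie between 0.27 and 0.73, and snRNA lies at -0.25.

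A group of long genes had a more positive change with the pulse in IFNAR1sg than in SCR cells. The interaction had 157 gene sums (1.09%) whose change was more positive in IFNAR1sg, and 132 of these (84.1%) were over 100 kb long, against 26.8% of all gene sums tested. Their median length was 277 kb, against 46 kb for all and 50.1 kb for the 48 genes on the other side. In IFNAR1sg 110 of the 157 rose with the pulse (27.1% of all gene sums did). In SCR 16 rose and 66 fell (22.2% and 22% of all gene sums did). With DMSO, 4 of the 157 already differed between the genotypes (0.0767% of all gene sums did). The 157 genes were picked by the difference between these same changes, so the counts of rises and falls are no separate support. None is on the interferon-stimulated list, whereas 26 of the 48 on the other side are, and with interferon beta in IFNAR1sg 1 rose and 15 fell (0.655% of all gene sums fell). NTM, a neuronal adhesion protein, had 12 and 154 reads with DMSO and 2206 and 1152 after the pulse (log2 change 4.29 ± 0.21), while SCR cells had 42 and 30 and then 7 and 12 (-1.41 ± 0.48, difference -5.69 ± 0.50, adjusted p = 2.69e-17). TENM2, a teneurin of synapses, had 29 and 58 reads and then 1151 and 599 (4.23 ± 0.21, difference -4.83 ± 0.58). SDK1, another adhesion protein, had 7 and 27 and then 619 and 303 (4.66 ± 0.27). FRMD6 had 35 and 41 and then 628 and 319 (3.52 ± 0.23), EDIL3 had 16 and 49 and then 591 and 317 (3.71 ± 0.24), and ANO2, a chloride channel, had 10 and 8 and then 467 and 255 (5.19 ± 0.31). In each of these the first pulsed library held more reads than the second, and both lay above both controls.

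Other genes with the smallest interaction p on that side included GNGT1 (log2 change 2.96 in IFNAR1sg and 0.00 in SCR), RORA (1.10 and -0.71), FRMD5 (3.07 and 0.48), CALN1 (1.52 and -1.0) and GPC6 (0.56 and -0.73). GPC6 was the weakest, with 144 and 151 CPM and then 277 and 158, and its rise ended without the first pulsed library (0.13, adjusted p = 0.447) and with the DESeq2 Wald test (adjusted p = 0.134). The reads of NTM and TENM2 were spread along the genes, mostly on the gene's strand. GNGT1 was an exception, with 42 and 62 reads on its strand and then 500 and 331, and 1120 and 1491 opposite it and then 2173 and 2093. In NTM 1226 of 1295 regions had reads after the pulse against 130 with DMSO, the fullest region held 2.29% of the reads, and reads on the other strand went from 112 and 158 to 248 and 220. In TENM2 893 of 967 regions had reads against 77, the fullest holding 1.66%. Only regions with reads in some library are counted, and more reads fill more regions (3358 against 166 reads in NTM). These region counts therefore do not measure a change in spread along the gene. Over all gene sums the median change in IFNAR1sg was 0.49 for 1301 genes up to 10 kb, 0.16 for 3867 of 10 to 30 kb, 0.04 for 5328 genes of 30 to 100 kb, 0.16 for 2913 of 100 to 300 kb, 0.66 for 863 of 300 to 1000 kb and 1.18 for 76 of 1000 to 3000 kb, against 0.52, 0.13, -0.07, -0.01, 0.36 and 0.55 in SCR. The medians thus fell with length up to 100 kb and were higher again in longer genes. Of the 76 longest, 17 (22.4%) had the more positive change in IFNAR1sg. The count of 157 fell to 76 without the first pulsed library of IFNAR1sg and rose to 239 without the second. It was 94 without the first DMSO library of SCR, and 98 and 88 without the first or the second pulsed library of SCR. The share over 100 kb lay between 68.4% and 87.8% without any single library. The DESeq2 Wald test called 64. Which side held more genes depended on the sums. With exon regions included, 105 gene sums had the more positive change in IFNAR1sg and 122 in SCR. Of these 105, 104 had a length and 89 were over 100 kb. Among single regions 10 were on the side of IFNAR1sg and 45 on that of SCR.

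**Figure D5:**
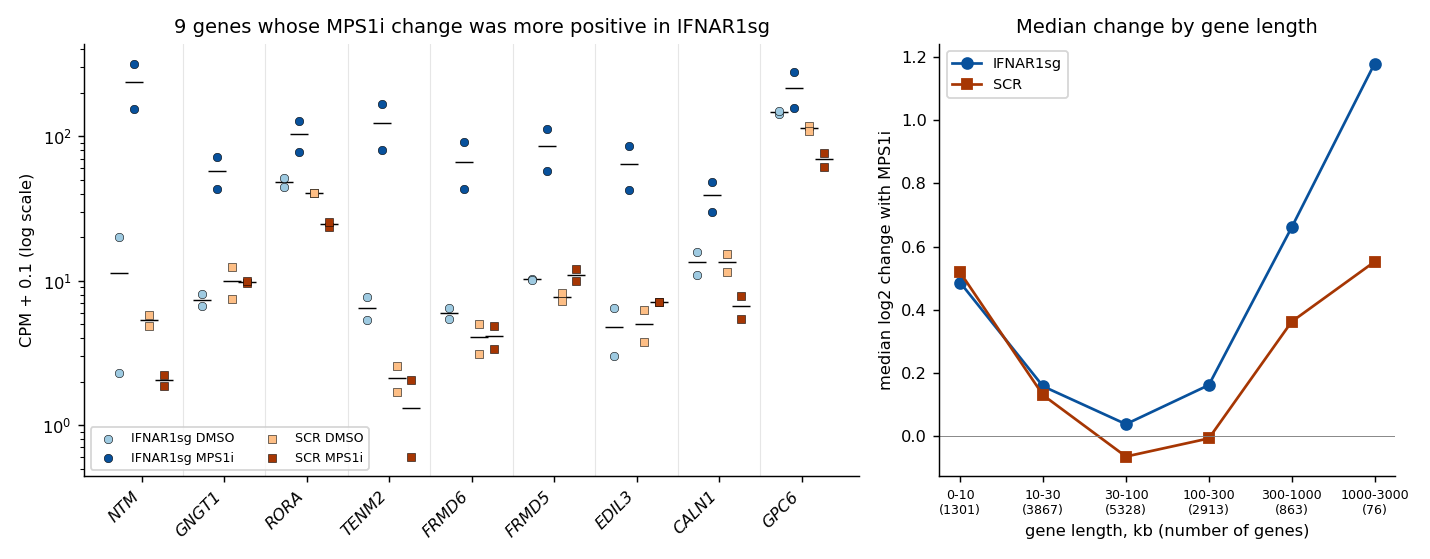
Left, CPM plus 0.1 (log axis) in each library of 9 of the genes with the smallest interaction p on the side of IFNAR1sg, with bars at the mean of 2 libraries. Right, median log2 change with MPS1i by gene length in both genotypes, with the number of genes under each length, reaching 1.18 in IFNAR1sg and 0.55 in SCR for genes over 1000 kb.

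On the other side of the interaction, 48 gene sums (0.335%) had the more positive change in SCR. In IFNAR1sg 32 of these 48 still rose (27.1% of all gene sums did). Besides the interferon-stimulated genes and RMI2 they included KRT18, a keratin of simple epithelia, with 149 and 241 reads with DMSO and 153 and 143 after the pulse in IFNAR1sg (-0.51 ± 0.17, adjusted p = 0.00836), against a rise of 0.78 ± 0.17 in SCR. Its fall ended without the second DMSO (adjusted p = 0.149) or the second pulsed library (adjusted p = 0.0844). APOBEC3F, a cytidine deaminase that acts on retroviruses, rose by 0.58 ± 0.22 in IFNAR1sg and 2.30 ± 0.23 in SCR. Its call in IFNAR1sg ended with the DESeq2 Wald test (adjusted p = 0.068), without TMM factors (adjusted p = 0.0788), and without the first DMSO, the second DMSO or the second pulsed library (adjusted p = 0.0585, 0.168 and 0.0697). CHROMR, a non-coding RNA, rose by 0.23 ± 0.09 and 0.95 ± 0.09, and the first of these calls ended under 7 alternatives, among them the DESeq2 Wald test (adjusted p = 0.121), no TMM factors (0.10, adjusted p = 0.397) and the absence of the first DMSO, the second DMSO or the first pulsed library (adjusted p = 0.103, 0.224 and 0.119). ENSG00000278996, a non-coding gene on the short arm of chromosome 21, did not pass the test in IFNAR1sg (0.27 ± 0.15, adjusted p = 0.138, but 0.54 without the second DMSO library). It rose by 1.72 ± 0.17 in SCR. The difference between the genotypes lost its call with the DESeq2 Wald test (1.44, adjusted p = 0.554). The mean with DMSO was already 49.6 CPM in IFNAR1sg against 22.9 in SCR, and after the pulse the means were 60.3 and 75.5. Across gene sums, changes in the 2 genotypes went together (Pearson r = 0.783, Spearman rho = 0.822, across genes that are not independent), with no shared library, and 4689 genes were called in the same direction in both against 20 in opposite directions.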

How the data were processed

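J2-bound RNA of 12 NCI-H1944 libraries was analysed, with 2 in each of 6 groups of genotype and treatment, taken from the labels. The authors deposited raw read counts per stranded region of hg38 for each library, with 5254113 regions. STAR, featureCounts, HOMER, cutadapt, Trimmomatic and Trim Galore appear in the submitters' processing notes, with no versions. The treatment of multi-mapping reads and of strands is not given there, so reads of overlapping, antisense or near-identical genes may be shared. From these counts, regions were assigned to genes by GENCODE names and exon overlap (bedtools 2.31.1, Python 3.11.15), and sums were made per gene and per repeat name. edgeR 4.0.16 (R 4.3.3) fitted the quasi-likelihood model over all 12 libraries with 1 coefficient per group, TMM factors from regions that passed filterByExpr (minimum count 10, minimum total 15, proportion 0.7), and Benjamini-Hochberg adjustment over all features of a level, with a threshold of 0.05 and no fold limit. Standard errors are the absolute log2 change divided by the square root of the F statistic. The interaction subtracts the IFNAR1sg change from that of SCR. Groups of 2 libraries are too small for an exact test of a single value. The scripts were tested on simulated data. DESeq2 1.42.0 was an alternative test.

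Named genes follow a rule: the 10 regions and 10 gene sums with the smallest p in each direction, the 10 with the smallest interaction p on each side (some genes are not reported here), the 4 members of each list with the smallest p for the pulse and for the interaction, 6 repeat subfamilies in each direction, all called families, and 16 genes of interferon, p53 and stress pathways. Other genes named were chosen after their values were seen. The members and lists were chosen with earlier results of these data known. Lists are described by counts and medians, with no test of the list. No column of the table was left unused.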

Additional observations from a re-analysis of the deposited data

Results flagged for a closer look

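Each value below is the log2 change with the pulse in SCR minus that in IFNAR1sg, and each result was flagged because the effect of the same pulse differed between the genotypes in edgeR's interaction test. No group has 4 or more libraries, so no check for an outlying library was possible.

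The change was more positive in IFNAR1sg for the long genes NTM (-5.69), TENM2 (-4.83), SDK1 (-4.33), FRMD6 (-3.44), ANO2 (-3.31), EDIL3 (-3.20), GNGT1 (-2.96), FRMD5 (-2.58), CALN1 (-2.52), RORA (-1.81) and GPC6 (-1.29). The same held for PRIM2 (-1.0) and POLA1 (-0.81), which start DNA chains. In each of these long genes the first pulsed library of IFNAR1sg held more reads than the second. The part of that spread in the result was not tested beyond leaving the library out.

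The change was more positive in SCR for UBE2L6 (3.01), CMPK2 (2.04), DHX58 (1.91), APOBEC3F (1.72), EPSTI1 (1.49), DTX3L (1.49), SAMHD1 (1.45), OAS1 (1.42), MX1 (1.42), TRIM5 (1.39), USP18 (1.32), SP110 (1.28), PARP14 (1.27), IFIT3 (1.25), IFI16 (1.25), RMI2 (1.22), PLSCR1 (1.15) and IFIT1 (1.10). Smaller differences on that side were those of DDX60L (1.0), PARP12 (0.97), IFIH1 (0.94), NLRC5 (0.94), PARP9 (0.93), OAS3 (0.90), TRIM14 (0.87), EIF2AK2 (0.75), SP100 (0.65) and RNF213 (0.61). KRT18 (1.29), CHROMR (0.72) and ENSG00000278996 (1.45), which are not on the interferon-stimulated list, were also on the side of SCR.

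Calls of the interaction that ended under at least 1 alternative included those of IFIT1, IFIT3, DHX58, MX1, USP18, OAS3 and GPC6. Also among them were UBE2L6 and CMPK2, which had the largest differences named on the side of SCR. The same held for SAMHD1, DTX3L, SP110, IFI16, PARP9, PARP12, NLRC5, RNF213, ENSG00000278996, PRIM2 and POLA1. DHX58, for example, kept a difference of 1.58 without the first DMSO library of IFNAR1sg with an adjusted p of 0.399.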

How the results depend on the processing

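Results were recomputed with other scaling, another test, another filter, other sums and without each library in turn. Of the values for single gene sums, 2338 kept their direction and side of the threshold, 56 lost and 16 gained the call and 2 reversed, and for gene interactions 819 kept it and 55 lost it. Among named regions 469 kept it, 5 lost and 1 gained it, and among named repeats 652 kept it, 14 lost it and 3 reversed. The reversals were CENPE (-0.060) and ERAP2 (0.78) when the sums took in exon-sharing regions, and Charlie1b (0.86), (TTCT)n (0.92) and snRNA (0.78) over intergenic regions only, and the cause was not tested. Changed regions numbered 15380, against 7352 with the DESeq2 Wald test and 6923 with no filter, where 2830514 regions were tested. Changed families numbered 20, against 44 over intergenic regions only. Region interactions numbered 55, against 95 with the DESeq2 Wald test, 9 with no filter and 26 without the interferon beta libraries. Gene interactions numbered 205, against 98 with the DESeq2 Wald test. Of the 205, 48 were on the side of SCR and 157 on that of IFNAR1sg, against 122 and 105 with exon-sharing regions. Subfamily interactions numbered 1, against 12 with exon-sharing regions and 2 without the interferon beta libraries. They numbered 0 with the DESeq2 Wald test and without TMM factors.

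With a replicate block, which takes the replicate number as a term, there were 15861 changed regions, 6718 gene sums, 488 subfamilies, 21 families, 167 region interactions, 207 gene interactions and 0 subfamily interactions. The replicate numbers do not pair the samples: deviations of same-numbered libraries correlated between -0.0548 and 0.0733. Leaving out 1 library at a time gave between 7068 and 16748 regions, 4950 and 7214 gene sums, 273 and 527 subfamilies, 19 and 23 families, 43 and 382 region interactions, 125 and 291 gene interactions, and 0 and 4 subfamily interactions. The low value for gene interactions came without the first pulsed library of IFNAR1sg, and 126 came without the second pulsed library of SCR. A group left with 1 library is assumed to vary like the others. Depth limits the genes with few reads, for which log2 changes rest on counts near 0.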
